A study of Mus musculus with 6 samples.

Results

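Potassium channel genes were examined in total RNA of the ganglionic eminences, the ventral forebrain swellings that give rise to striatal neurons and cortical interneurons, dissected from E13.5 mouse embryos. Members were the rows of the count table whose symbol is Kcn, then a subfamily letter code, then a number and nothing more, which gave 92 genes of 55416. Embryos lacking both Dlx1 and Dlx2, the neighbouring genes for a pair of homeodomain transcription factors of the ventral forebrain, were compared with wild-type littermates, with 3 libraries in each group. The labels used here give no strain, sex or allele and do not say whether a library came from 1 embryo, so p-values measure only the spread between these samples. Levels are in CPM, the reads of a gene per 1000000 counted reads, with library totals adjusted by edgeR's TMM factors.

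Potassium channels let potassium ions leave or enter the cell along their gradient and thereby set the resting potential, shape the action potential and limit repetitive firing. Voltage-gated channels open on depolarisation and are assembled from alpha subunits, with silent modifier subunits and auxiliary subunits changing their gating or number. Inward rectifiers and two-pore-domain leak channels act around the resting potential, and calcium- or sodium-activated channels follow the firing of the cell. In the embryonic forebrain, progenitors and glial cells rely mainly on leak and inwardly rectifying conductances, and voltage-gated conductances increase as neurons mature.

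Total counts ranged from 56618090 to 70114173 per library. The targeted genes were lower in every double knockout library than in any wild-type library. Dlx1 was at 433.98 to 445.73 CPM in wild-type libraries and 74.9 to 94.04 CPM in the double knockout, and Dlx2 at 281.8 to 313.3 and 7.50 to 10.99 CPM. Markers of the labelled tissue were present in all libraries: Nkx2-1 was at 118.5 to 138.7 CPM in the wild type and 168.99 to 230.9 CPM in the double knockout, Gsx2 at 21.9 to 25.97 and 32.9 to 42.6 CPM, and Lhx6 at 165.0 to 178.4 and 75.5 to 125.4 CPM. The first 2 of these were called higher and Lhx6 lower. Cortical excitatory markers were present as well, at 859.0 to 887.5 CPM summed over 6 genes in wild-type libraries and 646.7 to 689.8 CPM in the double knockout.

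Most of the family was expressed. Of the 92 members, 61 had a mean of at least 1 CPM over the 6 libraries and 29 a mean of at least 10 CPM. The filter on low counts left 80 to be tested. Of the 12 below it, Kcna7, Kcna10 and Kcnj1 had no read in any library, which allows up to 0.0432 to 0.0520 CPM (3 counts) per library, for counting error only. The other 9 below the filter, Kcne1, Kcne2, Kcng4, Kcnj16, Kcnk15, Kcnk16, Kcnk18, Kcnn4 and Kcnv2, had at most 9 reads in a library, except for Kcne2 in 1 wild-type library with 69.

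Per kilobase of exon in the wild type, among the members named here the highest level was that of Kcna3, a delayed rectifier gene of the Shaker type, at 11.3 ± 0.118 CPM per kb (SD, n = 3). Kcnn1, a small-conductance calcium-activated channel gene, came next at 8.58 ± 0.0988 CPM per kb, followed by Kcnd3 at 8.25 ± 0.300 and Kcnk10 at 8.18 ± 0.00398 CPM per kb. The wild-type ranges of Kcnn1 and Kcnd3 overlapped, as did those of Kcnd3 and Kcnk10, so the place of Kcnd3 is not resolved, while Kcnn1 was above Kcnk10 in every wild-type library. Kcnk10 did not overlap Kcnd2, at 6.48 ± 0.764 CPM per kb. In the double knockout Kcnk10 had the highest mean of the family, 11.4 ± 0.598 CPM per kb, ahead of Kcna3 at 11.1 ± 0.505 CPM per kb with overlapping ranges, and Kcnd3 was at 5.51 ± 0.314 CPM per kb. Lengths came from another annotation than the one used for counting, and the effect of that on the order was not tested.

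**Figure D1:**
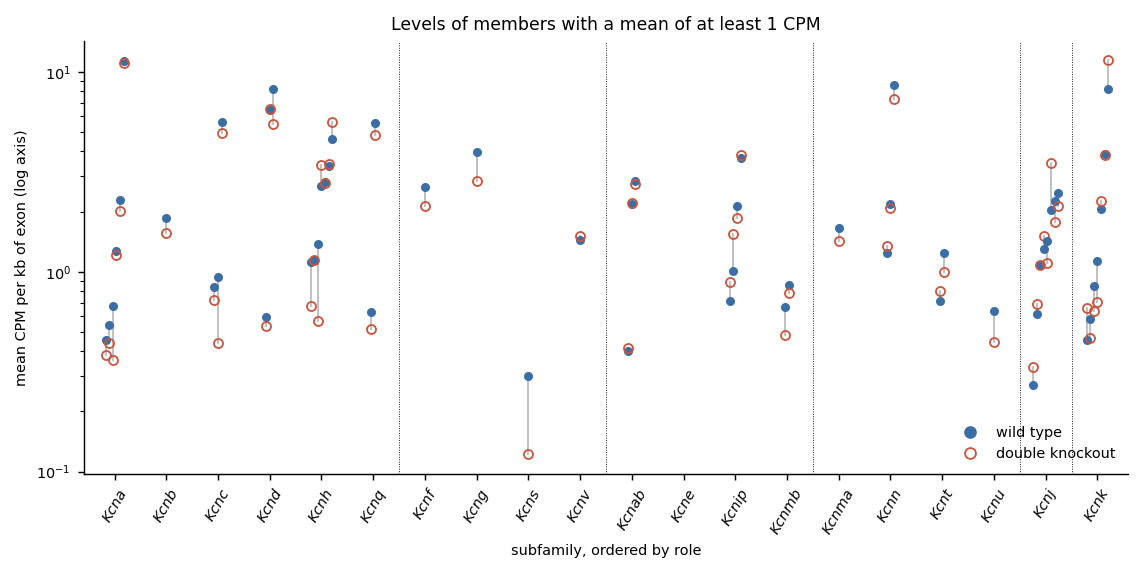
Mean level per kilobase of exon on a log axis, for 57 of the 61 members with a mean of at least 1 CPM, in the wild type (filled, n = 3) and the double knockout (open, n = 3), by subfamily, with dotted lines between role classes. Of the genes drawn, Kcna3 is highest in the wild type, Kcnk10 moves to the top in the double knockout, and Kcne has no member at this level.

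Between genotypes, 8 of the 80 tested members changed, 5 downward and 3 upward. The voltage-gated subunit genes Kcnd3, Kcnc2 and Kcnh3 and the silent modifier genes Kcng1 and Kcns2 fell. The two-pore-domain gene Kcnk10, the inward rectifier gene Kcnj10 and the voltage-gated gene Kcnh7 rose. Of all 23628 tested genes, 2.68% were called, 1.34% in each direction. Of the 16487 with a mean of at least 1 CPM, 3.57% were called, 1.77% higher and 1.8% lower, and all 8 called members were among the 61 members at that level (13.1%). At an unadjusted p under 0.05 there were 18 of the 80 members (22.5%), against 13.3% of all tested genes. The median log2 fold change was -0.10 over the tested members and 0.00 over all tested genes, and 61.3% of the members and 50.5% of all genes had a value below 0. The groups did not overlap in CPM for 19 of 80 members (23.8%), close to the 19.5% of all tested genes, and for 18 of the 61 more abundant members against 22.4% of genes at that level. In bulk tissue, fewer cells of a type and less RNA per cell cannot be told apart.

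Leaving out a library changed these calls. Without wild-type replicate 1, 2, or 3, there were 2, 3 and 5 called members, and without double knockout replicate 1, 2 or 3 there were 4, 5 and 11. The share of all genes called moved as well, to 1.27%, 1.35% and 1.66% without a wild-type library and to 1.57%, 1.66% and 3.09% without a double knockout one. Over the 14 refits (8 other settings and 6 with a library left out), Kcnd3 and Kcnk10 were called in every one. All 8 members kept their direction, but the refits could hardly have reversed it. They share libraries, and the groups of these 8 members did not overlap.

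**Figure D2:**
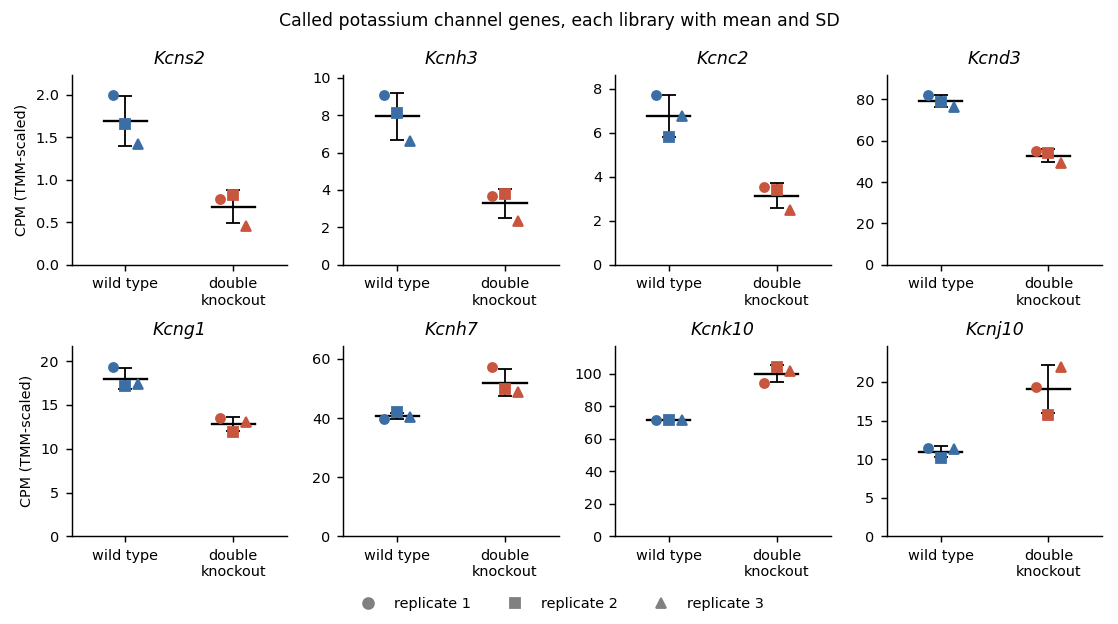
CPM of the 8 called members in each library (symbols by replicate number), with the mean (line) and SD (bar) of the 3 libraries of a genotype, each panel from 0. In every panel the 2 genotypes do not overlap, and Kcnk10 has nearly the same level in all wild-type libraries.

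For Kcnd3 and Kcnk10 the sequence before the gene start is shown, since these were the members called in all 14 refits at an adjusted p under 0.05, one downward and one upward. Both are 250 bases on the gene's strand from RefSeq (GRCm38.p6), ending at the base before an annotated start, with CG dinucleotides in capitals. In another annotation, GENCODE M21, the nearest start was 440 bases away for Kcnd3 and 0 bases away for Kcnk10. The Kcnd3 window is chr3:105451640-105451889 (plus strand) and the Kcnk10 window chr12:98575128-98575377 (minus strand).
Kcnd3: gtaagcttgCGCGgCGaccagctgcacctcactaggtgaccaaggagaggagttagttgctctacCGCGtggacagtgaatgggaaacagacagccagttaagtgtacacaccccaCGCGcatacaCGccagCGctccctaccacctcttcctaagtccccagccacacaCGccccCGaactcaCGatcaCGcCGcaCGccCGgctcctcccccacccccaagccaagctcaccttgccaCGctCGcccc
Kcnk10: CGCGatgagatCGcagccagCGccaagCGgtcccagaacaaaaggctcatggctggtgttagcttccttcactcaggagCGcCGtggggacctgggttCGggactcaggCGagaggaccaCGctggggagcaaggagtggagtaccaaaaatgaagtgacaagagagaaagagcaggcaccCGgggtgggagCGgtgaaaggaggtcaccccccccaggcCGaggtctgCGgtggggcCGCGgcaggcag
The Kcnd3 window held 18 CG dinucleotides and the Kcnk10 window 16. The Kcnd3 window overlaps an exon of the antisense gene Kcnd3os. Kcnk10 has another RefSeq start whose window overlaps exons of the gene and is not shown.

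Homeodomain factors of the Dlx type bind sites with a TAAT core. The letters TAATTA or TAATTG (on either strand, where the second reads CAATTA) were searched in windows of 300 bases, 250 before and 50 after each RefSeq start. They occurred in 12.4% of all 32851 windows. Of the members, 67 were matched, with 92 windows, and 6 of these (6.52%) held a match, belonging to Kcnq5, Kcnj13, Kcnip3, Kcnip1 and Kcnk12. Kcnip1 had a match in each of 2 windows. Among the called members, Kcnd3, Kcnk10, Kcnc2, Kcnj10 and Kcnh7 had 9 windows with no match, and Kcng1, Kcns2 and Kcnh3 had no entry. A window without a match shows only that these letters are not in it.

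Of the 28 tested voltage-gated alpha subunit genes, 3 fell and 1 rose. Kcnd3, which encodes a pore subunit of the A-type current, a fast transient current that delays firing, was at 82.2, 78.5 and 76.5 CPM in wild-type replicates 1 to 3 and at 54.9, 54.1 and 49.4 CPM in the double knockout. The groups lay far apart compared with their spread, and the double knockout held 66.8% ± 3.81 of the wild-type mean. The log2 fold change was -0.58 (SE 0.0583), for which edgeR's quasi-likelihood method gave a Benjamini-Hochberg adjusted p of 0.00134. Exons of Kcnd3os overlap 165 bases of Kcnd3 on the opposite strand, and Kcnd3os itself had 27 to 57 reads against 3120 to 5047 for Kcnd3.

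The other A-type subunit genes did not pass the test. Kcnd2 was at 33.4 ± 3.94 CPM in wild-type libraries and 33.5 ± 7.20 CPM in the double knockout, with a log2 fold change of 0.00 and a 95% interval from -0.35 to 0.36. Kcnd1 was lower in level, at 3.15 ± 0.328 and 2.83 ± 0.189 CPM. The share of the reads of the subfamily held by Kcnd3 was 67.0% to 70.9% in wild-type libraries against 57.1% to 63.6% in double knockout ones, with no overlap. Whether Kcnd3 and Kcnd2 differed in their response was not tested.

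Kcnc2 encodes a high-threshold channel known for allowing fast-spiking interneurons to repolarise quickly. It was at 7.71, 5.79 and 6.75 CPM in wild-type libraries and 3.54, 3.40 and 2.48 CPM in the double knockout, so every double knockout library was well below every wild-type one. The log2 fold change was -1.10 ± 0.170 (SE) at an edgeR adjusted p of 0.0118, which was 0.0530 without wild-type replicate 1. Kcnc1, the most abundant gene of the subfamily at 53.2 ± 5.32 and 46.5 ± 7.02 CPM, and Kcnc4 at 3.06 ± 0.674 and 2.66 ± 0.915 CPM did not pass the test. Kcnc2 held 8.36% ± 0.487 of the subfamily's reads in wild-type libraries and 4.57% ± 0.426 in the double knockout.

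The ether-a-go-go subfamily Kcnh had called members in both directions. Kcnh3, an elk-type gene of forebrain neurons, was at 9.08, 8.09 and 6.61 CPM in wild-type libraries and 3.70, 3.78 and 2.36 CPM in the double knockout. The groups were separate, and 41.4% ± 10.03 of the wild-type mean remained. Its log2 fold change was -1.27 ± 0.198 (SE) at an edgeR adjusted p of 0.0121, and of 0.0547 and 0.0551 without wild-type replicates 1 and 2. Kcnh7, an erg-type gene, was at 39.8, 42.0 and 40.3 CPM in wild-type libraries and 57.4, 49.7 and 48.96 CPM in the double knockout, with replicate 1 the highest. Its log2 fold change was 0.35 ± 0.0717 (SE) at an edgeR adjusted p of 0.0402. This call was lost with the replicate number as a block (edgeR adjusted p of 0.0564) and in 5 of the 6 fits without a library, all but that without double knockout replicate 3, with an adjusted p of up to 0.164.

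Exons of Gca overlap 696 bases of Kcnh7 on the opposite strand. Gca had 706 to 883 reads in wild-type libraries against 812 to 1270 in double knockout ones. Kcnh7 itself had 2334 to 2702 and 2867 to 3726 reads. The strand setting of the counting is not given, so the count of Kcnh7 is uncertain, and the part of Gca reads in it was not tested. Kcnh1, an eag-type gene, was at 9.54, 7.65 and 7.39 CPM in wild-type libraries and 6.61, 5.08 and 3.07 CPM in the double knockout. Although the groups did not overlap, the double knockout libraries were widely spread, and the edgeR adjusted p was 0.221 (0.0336 in DESeq2). The remaining 5 members, Kcnh2, Kcnh4, Kcnh5, Kcnh6 and Kcnh8, did not pass the test.

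No member of Kcna, Kcnb or Kcnq was called by edgeR. At an unadjusted p under 0.05 there were 1 of 6 tested Kcna genes, 0 of 2 Kcnb genes and 2 of 5 Kcnq genes, and DESeq2 called 1 of the Kcnq genes. Kcnq3, a subunit gene of the M-current, a slow voltage-gated current that restrains firing, was at 81.8 ± 7.41 and 71.4 ± 5.44 CPM, with a 95% interval of the log2 fold change from -0.38 to -0.01 and an edgeR adjusted p of 0.329. Kcna3 had 21.7, 21.7 and 21.3 CPM in wild-type libraries and 20.0, 21.8 and 21.6 CPM in the double knockout, with a 95% interval of the log2 fold change from -0.18 to 0.13.

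**Figure D3:**
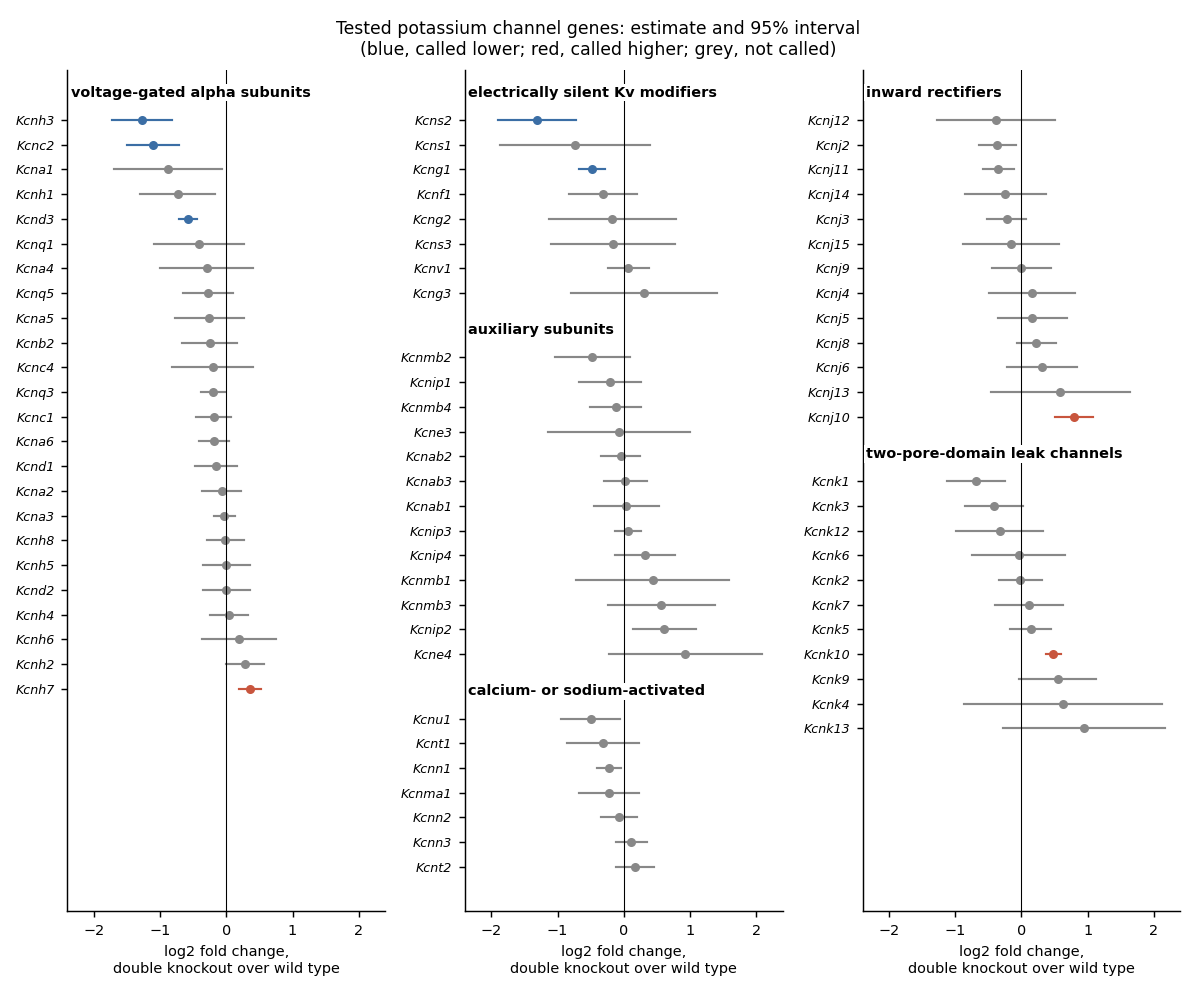
Log2 fold change (double knockout over wild type) with its 95% interval for 76 of the 80 tested members, by role class and ordered by value. Called members are blue (lower, 5) or red (higher, 3). The voltage-gated class extends further to the left than to the right, and the widest intervals belong to members with few reads such as Kcnk4 and Kcnk13.

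Silent modifier subunits form no channel on their own and join delayed rectifier subunits of the Kcnb type. Of the 8 tested, 2 fell. Kcng1 was at 19.4, 17.2 and 17.4 CPM in wild-type libraries and 13.53, 11.9 and 13.1 CPM in the double knockout. The wild-type libraries were all above the double knockout ones, and the log2 fold change was -0.48 ± 0.0872 (SE) at an edgeR adjusted p of 0.0241. Kcns2 was at 1.997, 1.65 and 1.42 CPM and at 0.770, 0.815 and 0.461 CPM, from 91 to 117 reads and 32 to 50 reads. Its 2 groups were also separate, with 40.4% ± 11.4 of the wild-type mean left, a log2 fold change of -1.31 ± 0.257 (SE) at an edgeR adjusted p of 0.0348.

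Both calls were lost in 5 of the 6 fits without a library, all but that without double knockout replicate 3. The adjusted p rose to at most 0.115 for Kcng1 and 0.144 for Kcns2 in these edgeR fits, and was 0.0692 and 0.0884 with Y-linked expression as a covariate. The Kcnb2 gene, for such a partner subunit, was at 28.2 ± 2.61 and 23.7 ± 6.42 CPM. The silent gene Kcnf1 was at 12.6, 12.99 and 12.6 CPM in wild-type libraries and 12.1, 12.4 and 6.26 CPM in the double knockout. Double knockout replicate 3 was well below the other 5 libraries, and the edgeR adjusted p was 0.644. Kcnv1, the third most abundant silent gene per length, was at 6.63 ± 0.844 and 6.93 ± 0.831 CPM.

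Among auxiliary subunits, 13 of 15 genes were tested and none was called by edgeR (1 at an unadjusted p under 0.05) or by DESeq2. These are the cytoplasmic beta subunits of the Shaker-type channels (Kcnab), the calcium-binding KChIP proteins that assemble with A-type subunits (Kcnip), the beta subunits of the large-conductance channel (Kcnmb) and the single-span proteins of the Kcne type. Per length the highest were Kcnip3 at 13.1 ± 0.908 and 13.6 ± 0.525 CPM, Kcnab2 at 15.8 ± 1.89 and 15.3 ± 2.19 CPM and Kcnab3 at 6.22 ± 0.427 and 6.31 ± 1.08 CPM. The A-type partner gene Kcnip2 was at 3.86, 3.36 and 3.32 CPM in wild-type libraries and 6.38, 6.12 and 3.62 CPM in the double knockout. The third double knockout library lay within the wild-type range, and the log2 fold change was 0.61 with a 95% interval from 0.13 to 1.09 and an edgeR adjusted p of 0.234. Without that library it was 0.84, with an adjusted p of 0.00989. In the other edgeR fits without a library, the adjusted p was 0.389 to 0.475.

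Of the 8 genes classed as calcium- or sodium-activated, 7 were tested, and none was called by edgeR (2 at an unadjusted p under 0.05) or by DESeq2. The class was set by subfamily letter code. It includes Kcnu1, 1 of those 2, whose gating by these ions is not established here. Kcnn1 was at 38.9, 39.8 and 39.3 CPM in wild-type libraries and 30.6, 32.9 and 37.5 CPM in the double knockout. All double knockout values were lower, with an edgeR adjusted p of 0.245, which was 0.0290 without double knockout replicate 3 (log2 fold change -0.30). In the other edgeR fits without a library, the adjusted p of Kcnn1 was 0.423 to 0.471. Kcnn2 was at 16.3 ± 0.364 and 15.5 ± 2.66 CPM. Kcnma1, which encodes the pore of the large-conductance calcium-activated channel, was at 32.0, 26.4 and 26.3 CPM in wild-type libraries and 31.0, 25.1 and 16.5 CPM in the double knockout, with overlapping groups.

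Of the 13 tested inward rectifier genes, 1 rose. Kcnj10, which encodes the main potassium channel of astrocytes and is also expressed by oligodendrocyte precursors, was at 11.4, 10.2 and 11.3 CPM in wild-type libraries and 19.4, 15.8 and 22.0 CPM in the double knockout. The lowest double knockout library was above the highest wild-type one, and the double knockout mean was 173% ± 28.4 of the wild-type mean. This gave a log2 fold change of 0.79 ± 0.124 (SE) at an edgeR adjusted p of 0.0126. It was between 0.0505 and 0.0631 without wild-type replicate 1 or 2 or double knockout replicate 1. Its glial partner gene Kcnj16 had 0 to 3 reads in each library.

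Markers of oligodendrocyte precursors moved with Kcnj10. All 6 listed markers, Pdgfra, Sox10, Olig1, Olig2, Gpr17 and Bcas1, were called higher, and their summed level was 68.1 to 69.7 CPM in wild-type libraries and 133.4 to 176.8 CPM in the double knockout. Double knockout replicate 3 was highest both in this sum and in Kcnj10. That library was also the highest in the sums of progenitor, ventral forebrain, pericyte, endothelial, microglia and blood markers. The 6 radial glia and progenitor markers summed to 2023 to 2282 CPM in wild-type libraries and 2424 to 2815 CPM in the double knockout, with no overlap. None of the 6 was called by edgeR (4 at an unadjusted p under 0.05), and DESeq2 called 1. The part of these cells in the Kcnj10 difference was not tested.

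Kcnj9, the protein-coding neighbour of Kcnj10 in the RefSeq gene order, was at 4.62 ± 0.418 and 4.63 ± 1.21 CPM, with a 95% interval of the log2 fold change from -0.44 to 0.44. It encodes a G protein-gated subunit. Kcnj3, the most abundant inward rectifier gene per length in wild-type libraries and also G protein-gated, was at 12.99 ± 1.91 and 11.1 ± 1.25 CPM. Kcnj11, the pore of the ATP-sensitive channel of neurons, was at 8.57, 8.68 and 7.62 CPM in wild-type libraries and 6.52, 6.04 and 6.92 CPM in the double knockout, and Kcnj2, a strong rectifier, at 7.77 ± 0.726 and 6.03 ± 0.728 CPM. The genotypes did not overlap for Kcnj11 or Kcnj2, but the edgeR adjusted p was 0.155 and 0.228. Kcnj8, the vascular relative of Kcnj11, was at 3.30 ± 0.162 and 3.86 ± 0.401 CPM, and the 6 pericyte markers summed to 72.9 to 89.5 CPM and 80.5 to 94.3 CPM, with overlap.

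Of the 11 tested two-pore-domain genes, 1 rose. Kcnk10, which encodes a leak channel of the TREK type, opened by stretch and lipids, was at 71.8, 71.8 and 71.8 CPM in wild-type libraries and 94.3, 104.4 and 101.8 CPM in the double knockout. The wild-type libraries were within less than 1 CPM of each other, and all 3 double knockout libraries were far above them. At 4206 to 4618 reads per wild-type library, counting error alone would be wider than that. The closeness is therefore no measure of the spread between samples. The log2 fold change was 0.48 ± 0.0504 (SE) at an edgeR adjusted p of 0.00160. Kcnk2, another TREK gene, was at 22.1, 16.9 and 18.3 CPM in wild-type libraries and 21.3, 20.1 and 15.4 CPM in the double knockout. Its log2 fold change was -0.02, with a 95% interval from -0.34 to 0.31.

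Kcnk10 held 62.4% to 65.6% of the reads of its subfamily in wild-type libraries against 67.1% to 74.2% in double knockout ones. Kcnk9, an acid-sensitive leak channel gene, was at 6.47, 4.54 and 5.72 CPM in wild-type libraries and 9.06, 10.4 and 4.96 CPM in the double knockout. Here too the third double knockout library lay within the wild-type range. The edgeR adjusted p was 0.418, and 0.0290 without that library, with a log2 fold change of 0.81. In the other edgeR fits without a library, the adjusted p of Kcnk9 was 0.533 to 0.732. Kcnk1 was at 2.17, 2.43 and 2.98 CPM and 1.86, 1.51 and 1.34 CPM. The groups did not overlap, and edgeR gave an adjusted p of 0.130 and DESeq2 one of 0.0479. Kcnk5 was at 5.96, 7.84 and 7.22 CPM in wild-type libraries and 7.53, 6.90 and 8.72 CPM in double knockouts, with overlap.

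Summed over a role class, the two-pore-domain genes were at 109.6 to 115.1 CPM in wild-type libraries and 137.2 to 148.7 CPM in the double knockout, and the inward rectifiers at 53.4 to 56.9 and 58.2 to 61.1 CPM. Silent modifiers were at 39.1 to 43.5 and 26.7 to 35.7 CPM, and calcium- or sodium-activated genes at 112.2 to 123.5 and 99.1 to 110.7 CPM. These 4 sums did not overlap between genotypes. The sums of the voltage-gated alpha subunits, at 666.9 to 749.6 and 568.0 to 680.9 CPM, and of the auxiliary subunits, at 58.2 to 70.98 and 54.9 to 70.0 CPM, did. Each sum follows its most counted genes, and no sum was tested. Of the inward rectifier sum, Kcnj10 held 19.1% to 20.1% in wild-type libraries and 26.6% to 37.7% in double knockout ones. Of the 13 tested genes of that class, 7 had a log2 fold change below 0 and 6 above, so the higher sum does not describe the class as a whole. Over all 92 members the sum was 1092 ± 61.5 CPM in wild-type libraries and 1031 ± 78.5 CPM in the double knockout.

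**Figure D4:**
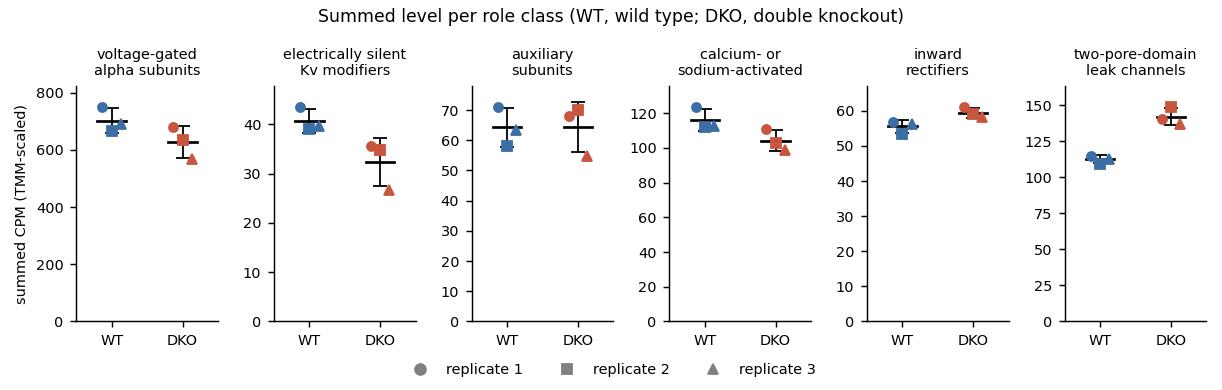
Summed CPM per role class in each library (symbols by replicate number), with mean and SD of the 3 libraries of a genotype, each axis from 0. The two-pore-domain class stands higher in the double knockout (137.2 to 148.7 against 109.6 to 115.1 CPM), and double knockout replicate 3 is lowest of all libraries in the voltage-gated, silent, auxiliary and calcium- or sodium-activated classes.

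Sums of neuronal markers were also lower in the double knockout. All 4 GABAergic markers and 9 of 10 striatal projection neuron markers were called lower, with sums of 643.9 to 664.2 and 304.5 to 322.1 CPM for the first and 1074 to 1140 and 630.5 to 727.7 CPM for the second. Of the 8 pan-neuronal markers, 2, Snap25 and Elavl3, were called lower, and the sum was 5862 to 6361 CPM in wild-type libraries and 4767 to 5527 CPM in the double knockout. Of the 6 cortical excitatory markers, 1 was called lower, and all 6 had a log2 fold change below 0. Their sums, given above, did not overlap between genotypes. Double knockout replicate 3 was the lowest library for Kcnd3, Kcnc2, Kcnh3 and Kcns2, but not for Kcng1. Among the double knockout libraries it had the highest GABAergic and striatal projection neuron sums. No marker of these lists was at 0. Their part in the lower channel genes was not tested.

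Double knockout replicate 3 stood apart in the family and also over all genes. Its chi-square per gene was 32.82 against double knockout replicate 1 and 27.14 against replicate 2. Between replicates 1 and 2 it was 12.03, and between wild-type libraries 18.78 to 19.86. Among the 61 members with a mean of at least 1 CPM, replicate 3 was the lowest of the 3 double knockout libraries for 40 (65.6%). The share over all 16487 tested genes at that level was 36.5%. This library was the highest of the 3 for 11 of the 61 members and for 44.03% of all such genes. Its median deviation from the double knockout mean was -0.17 on the log2 scale over the members and 0.01 over all such genes. It also had the lowest pan-neuronal sum of all libraries, 4767 CPM, and the highest progenitor sum, 2815 CPM. Other neuronal lists went the other way. Its GABAergic (322.1 CPM), striatal projection neuron (727.7 CPM) and cortical excitatory (689.8 CPM) sums were the highest of the double knockout libraries. In the wild type, replicate 1 was the highest for 39 of 61 members (63.9%), against 35.2% of all such genes. Without double knockout replicate 3, the 8 members remained called and Kcnip2, Kcnk9 and Kcnn1 were added, while 3.09% of all genes were called.

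**Figure D5:**
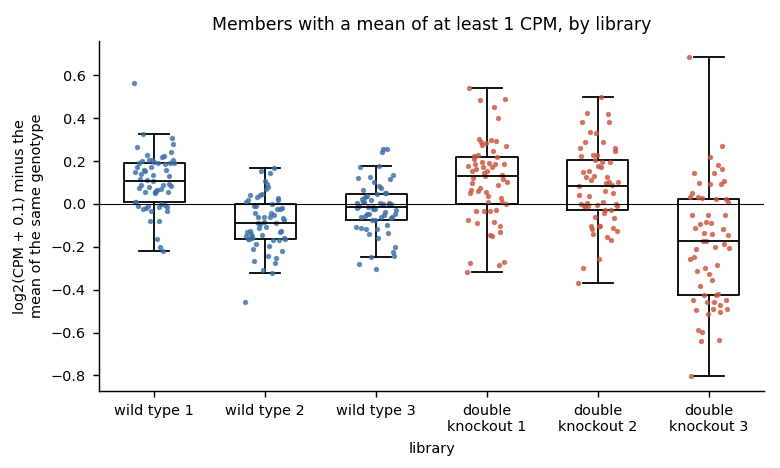
Deviation of log2(CPM + 0.1) from the mean of the same genotype, for the 61 members with a mean of at least 1 CPM (points) in each library, with median, quartiles and whiskers to 1.5 interquartile ranges. Double knockout replicate 3 lies mostly below 0 (median -0.17) and wild-type replicate 1 mostly above.

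Genes that work with these channels but carry other names were read from 3 lists, against the 2.68% called of all tested genes. Of 20 genes for channel-associated and anchoring proteins, 1 was called, and the median log2 fold change was -0.10. This was Cntn2, an adhesion molecule that clusters Shaker-type channels along axons, which averaged 318.7 ± 25.03 CPM against 235.7 ± 12.3 CPM in the double knockout. Here the log2 fold change was -0.43 ± 0.0695 (SE) at an edgeR adjusted p of 0.0140. That call was lost without wild-type replicate 1 or double knockout replicate 1 or 2, with an adjusted p of up to 0.0656. The A-type auxiliary genes Dpp6 and Dpp10 were at 66.9 ± 5.46 and 60.8 ± 12.4 CPM and at 14.7 ± 3.63 and 8.99 ± 2.65 CPM, for which edgeR gave adjusted p-values of 0.770 and 0.225.

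Of 13 tested potassium pump and cation-chloride cotransporter genes, 1 was called, and the median log2 fold change was 0.03. Slc12a2, the sodium-potassium-chloride importer that keeps chloride high in immature neurons, was at 291.6, 298.3 and 280.2 CPM in wild-type libraries and 217.3, 185.3 and 208.5 CPM in the double knockout. The groups were clearly separate, with a log2 fold change of -0.51 ± 0.0665 (SE) at an edgeR adjusted p of 0.00506, and the call held in all 14 refits. Slc12a5, the neuronal potassium-chloride exporter, was at 38.98 ± 4.08 and 37.0 ± 9.84 CPM (edgeR, adjusted p = 0.918). The 4 tested partner genes of the large-conductance and ATP-sensitive channels had a median log2 fold change of -0.24, and their list summed to 38.8 to 49.7 CPM in wild-type libraries and 34.5 to 39.96 CPM in the double knockout, with overlap.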

How the data were processed

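The authors deposited whole-number read counts per gene, with a column per library and no normalisation. Per the submitters' processing notes, featureCounts and the build GRCm39 were used, and per the labels' protocols the libraries came from total RNA with ribosomal RNA depleted and a stranded kit. The aligner, the annotation release and the strand setting are not given in the sources used here, so counts of genes with opposite-strand overlaps are uncertain. All 6 columns of per-library values were used.

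Groups and replicate numbers came from the titles. Genes were filtered with filterByExpr (minimum count 10, minimum total 15), scaled by TMM and tested on the whole table with edgeR 4.0.16 (quasi-likelihood, prior count 0.125, R 4.3.3). A gene was called at a Benjamini-Hochberg adjusted p under 0.05. Standard errors were the log2 fold change divided by the root of the F statistic. The test was tried on simulated counts. Alternatives were DESeq2 1.42.0, limma 3.58.1 (voom), other scalings and filters, a replicate block, a Y-linked covariate, stricter thresholds and leaving out each library. Exon lengths and overlaps came from GENCODE M21 (GRCm38), matched by gene identifier, so no coordinates of the counted genes are given.

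The members, role classes, gene lists and markers were chosen with earlier results of these data known. Named were all called members, the 3 highest per length in each role class, the 5 uncalled members with the smallest adjusted p, and called genes of the related lists. Other members were named after their values were seen. Some genes, 4 members among them, are not reported here by name or drawn singly, but remain in all counts and sums.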

Additional observations from a re-analysis of the deposited data

How the results depend on the processing

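Of 8 called members (3 higher, 5 lower), 8 were also called with DESeq2 size factors, total count scaling, limma-voom, no filter and a filter at a mean of 1 CPM. DESeq2 called 11, of which 8 were lower, and 4.92% of all genes. With the Y-linked covariate 6 were called, 3 of them lower, and 1.52% of all genes, against 2.68% in the reported test. An adjusted p under 0.01 left 2, 1 higher and 1 lower. Adding a minimum absolute log2 fold change of 1 left 3 lower and 0 higher in edgeR, with 0 higher in DESeq2 and 0 in edgeR at an unadjusted p under 0.05. Leaving out a library gave 2 to 11 called members, 1 to 5 higher and 1 to 6 lower. The cause was not tested.

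With the replicate number as a block, 7 members were called, 2 higher and 5 lower, and the one lost was Kcnh7. Same-numbered libraries had correlations of their deviations of -0.0647, -0.0124 and 0.0504 over all tested genes. Differently numbered ones had -0.168 to 0.165. With 3 libraries in each group, such values cannot decide whether equal numbers mark paired samples. No named member reversed its direction where it was called, which refits that share libraries could hardly have shown. The summed levels per role class moved by less than 1 SD under both other scalings. Between the scalings, the median log2 fold change of all genes shifted by at most 0.03. Members with few reads, such as Kcnk4, Kcnk13 and Kcne4, had 95% intervals over 2 log2 units wide. Their upper ends were 2.12, 2.17 and 2.08, so rises of several fold were not excluded for these genes. The lower ends were -0.86, -0.29 and -0.22. A planned description of protein sequences was not run.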

Other observations

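Kcne2, a channel subunit gene known from the choroid plexus, had 69 reads in wild-type replicate 1 and 3 to 8 in each of the other 5 libraries. Ttr, the most abundant transcript of choroid plexus epithelium, had 1540 reads in that library and 0 to 10 in the others, and Clic6 and Folr1 were also highest there, at 220 and 32 reads against at most 42 and 2. These genes were chosen after their values were seen. Kcnj13, another gene of that epithelium, had 8 reads in wild-type replicate 1 and 20 to 38 in the others, and its exons overlap those of Gigyf2 on the opposite strand.

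Among rows outside the name rule, the imprinted antisense transcript Kcnq1ot1 had 2733 to 4133 reads in wild-type libraries against 3122 to 4815 in double knockout ones. Kcnq1, which it overlaps by 121 bases of exon, had 50 to 78 and 35 to 64 reads.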
